A study of Rattus norvegicus with 3 samples.

Results

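Genes of the DNA damage checkpoint and of DNA break repair were followed in the P4 rat retina after intravitreal STZ, an alkylating glucosamine-nitrosourea. The genes were taken by symbol from a list of 37 kinases, mediators, nucleases, helicases, recombination factors, end joining factors and Fanconi anemia genes. All 37 were found among the 18425 genes of the deposited table. The libraries came from wild-type Sprague Dawley rats injected at P1 with 1 µl of citrate buffer (pH 4.5), of saline or of STZ (10 µg, prepared in citrate buffer), and the retinas were taken at P4. There was 1 library per condition, with 21992749 reads for buffer, 21977876 for saline and 22031287 for STZ after rounding. How many retinas or litters went into each library is not given in the sources used here, so animals, dissection and treatment cannot be told apart in any comparison. In the study's injections the left eye of an STZ-treated rat received buffer, and whether the buffer and STZ libraries came from such paired eyes is likewise not given.

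A break in DNA is sensed at its ends. The kinase Atm passes the signal to Chek2 and Atr to Chek1, which hold the cell cycle, while the kinase Prkdc acts in end joining. The ends are then either trimmed and copied from the sister chromatid, which is homologous recombination and needs Brca1, Brca2 and strand exchange factors, or ligated directly, which is end joining and needs the Ku proteins and Lig4. The Fanconi anemia proteins bring recombination to crosslinked DNA. Recombination works in S and G2 phase, and at P4 the retina still holds dividing progenitors. Much of the control of this network acts on the proteins, by phosphorylation and ubiquitination, which RNA does not show.

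None of the 37 genes passed the fold thresholds in any comparison. The fold of a gene was (FPKM + 1)/(FPKM + 1), where FPKM is the deposited level per transcript length and library size, and the thresholds of the study's methods lie at 0.62 and -0.62 on the log2 scale, the lower of them a fold of 0.65. In STZ against buffer, 0 of the 37 were past either threshold, where 2.25% of all genes were higher and 1.04% were lower. Against saline the number was 0 of 37 as well, where 2.04% of all genes were higher and 1.75% lower. Between saline and buffer it was again 0, where 1.00% of all genes were higher and 0.429% lower. With shares this low, few of 37 genes would lie past a threshold. The counts of 0 are therefore near the share of all genes and do not set these genes apart. The folds of STZ against buffer ran from 0.729 for Xrcc3 to 1.26 for Rad52, and 21 of the 37 lay within 10% of 1.

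The small differences leaned downward. The median log2 fold of the 37 was -0.03 against buffer and -0.11 against saline, where the median of all genes with a mean of at least 10 reads was 0.03 and 0.01. Saline against buffer gave 0 for the 37 and 0.02 for all such genes. The median size of the differences was near that of other genes, but their spread was narrower. The median absolute log2 fold was 0.117 against buffer, where the 11697 genes with mean reads in the same range (73 to 6442) had 0.126. Against saline it was 0.147 and 0.150, and between the controls 0.0742 and 0.0825. The standard deviation of the log2 folds was 0.167 for the 37 and 0.293 for genes in the read range against buffer. It was 0.199 and 0.320 against saline, and 0.111 and 0.210 between the controls.

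A finer measure divides the share of library reads that a gene took in STZ by its share in a control, with an exact Clopper-Pearson 95% interval. These intervals cover counting error only, so they compare 3 libraries and not 3 conditions, and the background beside them shows how often they leave out 1. Against buffer, 13 of the 37 had an interval below 1 and 4 had an interval above 1, where 20.0% and 27.9% of the genes in the same read range did. Against saline, 15 were below and 5 above, where 24.9% and 29.1% of such genes were. Between the 2 controls, 4 were above and 4 below, where 16.6% and 12.7% were. Both comparisons of STZ share the STZ library. In FPKM, 21 of the 37 were lower in STZ than in both controls and 11 were higher, where 35.8% and 44.7% of genes in the read range were. The STZ value lay below both controls by more than the controls differed from each other for 14 of the 37, and above them by as much for 5, where the background was 22.5% and 29.1%.

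**Figure D1:**
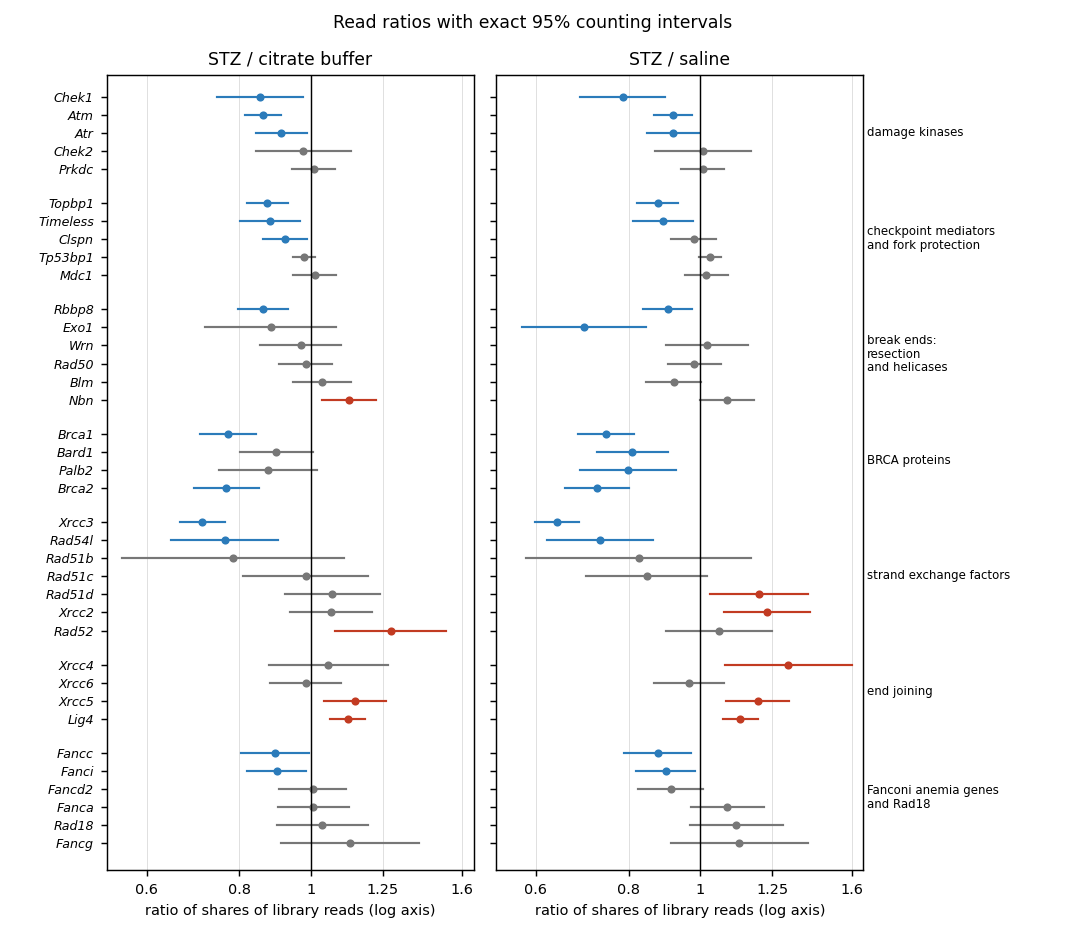
Read ratios of STZ to citrate buffer (left) and to saline (right) for the 37 genes, on a log axis, with points for the ratios and lines for the exact 95% counting intervals. Blue lines lie below 1 (13 genes against buffer, 15 against saline), red lines above 1 (4 and 5), and the lowest ratio in both panels is that of Xrcc3.

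The promoters of these genes carry E2F words more often than the promoters of all genes do, as do those of S phase and other damage response genes. E2F factors activate genes for S phase. The sequences below were picked with the folds known, so they do not show how often a word goes with a lower fold. They set genes with the word, or for Brca1 only its shorter core, that were lower in STZ beside a gene with it, and a gene without it, that were higher. Lower genes without word or core are not printed, among them Xrcc3, Rad54l and Rbbp8, which were lower than both controls. RefSeq promoter windows of 300 bases (250 before the start, 50 after, build GRCr8) matched 30 of the 37 genes by gene ID; Prkdc, Chek2, Mdc1, Nbn, Blm, Wrn and Xrcc2 were not matched. The E2F word was TTTCCCGC, TTTCGCGC, TTTGCCGC or TTTGGCGC on either strand, and the shorter core was the same word without its first T, so that every long word also holds the core. The long word lay in 9 of the 30 windows (30%), where 3.52% of the 13845 windows of genes in the table held it, and the core lay in 13 of 30 (43.3%), where 15.3% did. Of 64 windows of other damage response genes, 12.5% held the long word and 29.7% the core. The 80 bases just before the start are printed 5′ to 3′ with the E2F word or core in capitals. Chek1 (chr8:44629844-44629923, minus strand), Topbp1 (chr8:112766711-112766790, plus strand), Fancc (chr17:1687009-1687088, plus strand) and Brca1 (chr10:86977582-86977661, minus strand) were lower in STZ than in both controls. Rad51d (chr10:68321903-68321982, minus strand) holds the long word and was higher than both. Lig4 (chr16:86220362-86220441, plus strand) was higher than both and has no such word in its window.
Chek1: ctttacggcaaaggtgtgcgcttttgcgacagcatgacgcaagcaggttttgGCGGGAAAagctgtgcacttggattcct
Topbp1: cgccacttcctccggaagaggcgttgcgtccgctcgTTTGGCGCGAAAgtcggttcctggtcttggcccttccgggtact
Fancc: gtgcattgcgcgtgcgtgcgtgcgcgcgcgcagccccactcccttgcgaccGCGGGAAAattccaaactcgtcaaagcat
Brca1: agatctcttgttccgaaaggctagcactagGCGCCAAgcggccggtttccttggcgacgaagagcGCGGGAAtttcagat
Rad51d: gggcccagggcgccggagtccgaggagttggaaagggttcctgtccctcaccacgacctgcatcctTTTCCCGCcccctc
Lig4: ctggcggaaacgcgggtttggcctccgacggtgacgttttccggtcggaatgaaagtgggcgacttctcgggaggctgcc

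In Chek1 and Fancc the same 8 bases, the reverse complement of TTTCCCGC, begin 28 and 29 bases before the start. Topbp1 has a pair of long words that overlap, at 44 and 40 bases before the start and on opposite strands. Brca1 has 2 cores, 50 and 15 bases before the start, and no long word. The other long words lay in Atm, Bard1, Clspn, Fancd2 and Timeless, and the other cores without a long word in Fanci, Rad50 and Xrcc4. The 9 genes with the long word had a median fold of 0.890 against buffer and 0.904 against saline, and the 21 without it had 0.977 and 0.929. Of the 9, 7 had a fold below 1 against buffer, with Rad51d and Fancd2 as the others, and of the 21, 15 did. Against saline 8 of the 9 and 13 of the 21 had a fold below 1. The difference between these groups was not tested, and genes with the CHR or NF-Y words described below also had lower medians than genes without them. A match is a run of letters and not a bound site.

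**Figure D2:**
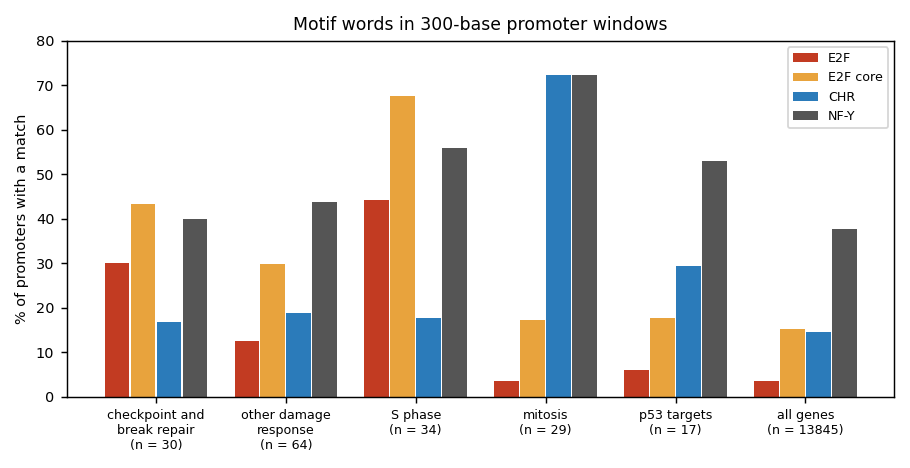
Percent of 300-base promoter windows that hold each motif word on either strand, for 5 gene lists and for all genes with a window. Bars for checkpoint and break repair genes stand at 30% for the long E2F word and 43.3% for its core, between those of all genes (3.52% and 15.3%) and of S phase genes (44.1% and 67.6%). Those of other damage response genes, 12.5% and 29.7%, also lie between these.

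The same windows were searched for the words of mitosis genes and of p53. The CHR word of mitotic promoters, TTTGAA or TTCGAA, lay in 5 of the 30 windows (16.7%), where 14.6% of all windows and 72.4% of 29 mitosis gene windows held it. The NF-Y word CCAAT lay in 12 of 30 (40%), where 37.6% of all windows held it. A p53 half-site lay in 1 of 30 (3.33%), where 7.04% of all windows and 35.3% of 17 p53 target windows held it. In these windows the checkpoint and repair genes were nearest to the background for CHR and NF-Y words. The 5 genes with the CHR word had median folds of 0.905 against buffer and 0.864 against saline, and the 25 without it 0.973 and 0.929. For the NF-Y word the medians were 0.925 and 0.846 in the 12 genes with it, and 0.981 and 0.924 in the 18 without. Rad50, the gene with the p53 half-site, had folds of 0.986 and 0.983, where the 29 without had medians of 0.928 and 0.906. These differences were not tested.

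Reads and FPKM of the libraries are given from here on in the order buffer, saline, STZ. Among the damage kinases, Chek1, Atm and Atr were lower in STZ, and Prkdc and Chek2 differed little. Atm, the kinase that answers to broken ends, had 2608, 2446 and 2252 reads and an FPKM of 10.01, 9.40 and 8.63. The read ratio of STZ to buffer was 0.862 (interval 0.814 to 0.912) and that to saline 0.918 (0.867 to 0.973), but saline was below buffer as well, at 0.939 (0.888 to 0.992). Atr, the kinase that answers to single-stranded DNA at stalled forks, had 1280, 1271 and 1170 reads, and here the controls stood together and STZ below them.
Chek1, the kinase downstream of Atr, had 476, 517 and 407 reads and an FPKM of 10.24, 11.13 and 8.72. Its fold was 0.865 against buffer and 0.801 against saline, with read ratios of 0.854 (0.746 to 0.976) and 0.785 (0.688 to 0.896). Chek2, the kinase downstream of Atm, had 367, 355 and 359 reads, which are alike within counting error. Prkdc, the catalytic kinase of end joining, had 1787, 1788 and 1805 reads, an FPKM of 7.32, 7.39 and 7.46, and folds of 1.02 and 1.01. Its ratios of 1.01 and 1.01 had intervals of 0.944 to 1.08 and 0.943 to 1.08. Both intervals held 1, whereas those of Atm, Atr and Chek1 lay below it.

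**Figure D3:**
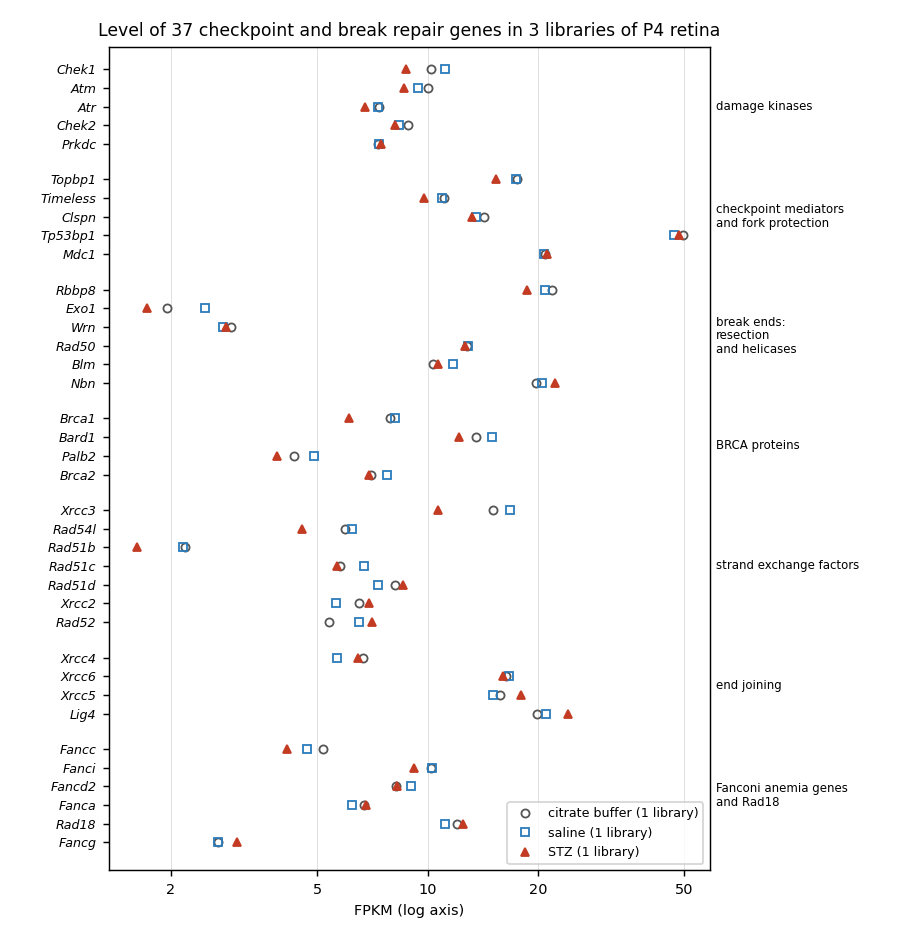
FPKM of the 37 genes in the citrate buffer (open circles), saline (open squares) and STZ (filled triangles) libraries, on a log axis, grouped by role and ordered by fold within a role. Levels run from 1.61 for Rad51b in STZ to 49.43 for Tp53bp1 in buffer, and the 3 libraries lie close together for most genes.

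The checkpoint mediators carry the signal from the lesion to the kinases. Topbp1, which activates Atr, had 2070, 2060 and 1810 reads, an FPKM of 17.52, 17.45 and 15.32, and folds of 0.881 and 0.885. The controls differed by 10 reads, and the ratio of STZ was 0.873 against buffer (0.819 to 0.930) and 0.877 against saline (0.822 to 0.934). Timeless, part of the complex that protects replication forks, had 970, 958 and 855 reads and followed the same order, with ratios of 0.880 (0.802 to 0.966) and 0.890 (0.811 to 0.977). Clspn, the adaptor between Atr and Chek1, had 1715, 1614 and 1586 reads, rounded from fractional values. Its STZ library was below buffer at 0.923 (0.862 to 0.989) but not beyond counting error from saline, at 0.980 (0.914 to 1.05).
The mediators that bind chromatin beside breaks gave intervals that held 1. Tp53bp1, which steers breaks toward end joining, had the highest FPKM of the 37 in every library, with 49.43, 46.93 and 48.27, and its STZ value lay between the controls. Its reads were 6601, 6258 and 6468. Mdc1, the scaffold that reads phosphorylated histone H2AX, had 1753, 1740 and 1777 reads, an FPKM of 20.90, 20.77 and 21.15, folds of 1.01 and 1.02, and ratios of 1.01 (0.947 to 1.08) and 1.02 (0.953 to 1.09).

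At the break ends, Rbbp8 was lower and Nbn higher. Rbbp8 encodes CtIP, which starts the trimming of ends that commits a break to recombination. It had 1437, 1371 and 1241 reads, an FPKM of 21.78, 20.83 and 18.62, a fold of 0.861 and 0.899 against the controls, and read ratios of 0.862 (0.798 to 0.931) and 0.903 (0.836 to 0.976). Nbn, which recruits Atm to the ends, had 1029, 1064 and 1160 reads, an FPKM of 19.74, 20.43 and 22.20, folds of 1.12 and 1.08, and ratios of 1.13 (1.03 to 1.23) and 1.09, whose interval against saline held 1. Rad50, the partner of Nbn in the same complex, had 1187, 1189 and 1170 reads with intervals that held 1 against both controls.
Exo1, the exonuclease that extends resection, was the weakest of this group, with 207, 262 and 183 reads. Its ratio against saline was 0.697 (0.574 to 0.845), but saline was also above buffer, at 1.27 (1.05 to 1.53), and STZ against buffer was 0.883 (0.719 to 1.08). The helicases Blm and Wrn, which unwind recombination intermediates, had 978, 1099 and 1014 reads and 509, 483 and 494 reads. In both the STZ value lay within the range of the 2 controls.

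All 4 BRCA genes were lowest in STZ, by FPKM and by reads. Brca1, which promotes the resection of ends, had 1161, 1202 and 899 reads and an FPKM of 7.88, 8.16 and 6.09. The fold was 0.798 against buffer and 0.774 against saline, and the read ratios were 0.773 (0.708 to 0.844) and 0.746 (0.684 to 0.814). The controls differed by less than counting error, with a ratio of 1.04 (0.955 to 1.12). Bard1, the partner of Brca1, had 661, 733 and 595 reads, with ratios of 0.899 (0.803 to 1.01) and 0.810 (0.726 to 0.903). Palb2, which joins Brca1 to Brca2, had 367, 402 and 322 reads, with ratios of 0.876 (0.752 to 1.02) and 0.799 (0.688 to 0.928). For these genes saline stood highest, and the interval left out 1 against saline but not against buffer.
Brca2, which acts with Palb2 in strand exchange, gave different answers by reads and by FPKM. It had 892, 944 and 687 reads, with ratios of 0.769 (0.695 to 0.850) and 0.726 (0.657 to 0.802), while its FPKM was 7.02, 7.76 and 6.91 and its folds were 0.986 and 0.903. The length that reads and FPKM imply together was 0.781 times as long in STZ as in buffer, the lowest such value of the 37, whereas for Brca1 it was 1.0. An implied length off by more than 5% was found for 6 of the 37 and for 5.13% of genes in the same read range. The fold of Brca2 depends on the transcript length assigned to each library, and why the lengths differ was not tested.

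**Figure D4:**
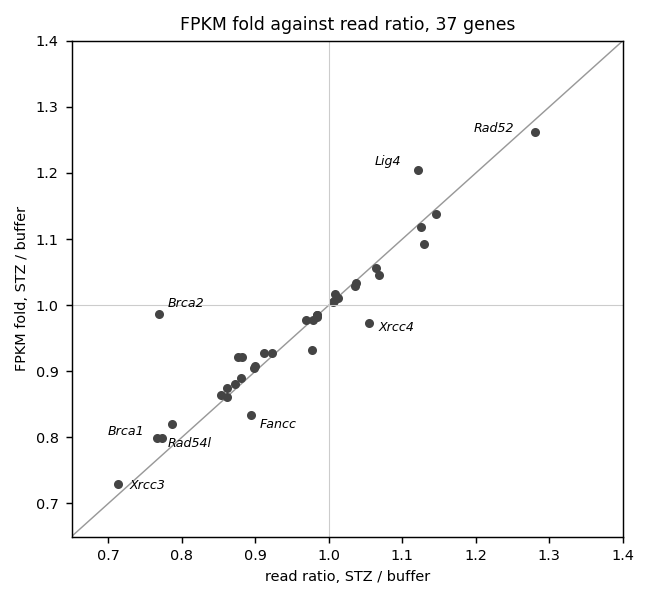
FPKM fold of STZ against citrate buffer (vertical) plotted against the read ratio (horizontal) for the 37 genes, with the line of equality. Most genes lie near the line, and Brca2 lies farthest from it, at a ratio of 0.769 and a fold of 0.986.

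The strand exchange factors held both lower and higher genes. Xrcc3, which acts in strand exchange with Rad51c, had the lowest fold of the 37, with 1884, 2098 and 1347 reads. Its FPKM was 15.04, 16.76 and 10.70, its folds 0.729 and 0.659, and its read ratios 0.714 (0.665 to 0.766) and 0.640 (0.598 to 0.686). The fold against saline lay just above the threshold of 0.65 and was 0.641 with a pseudocount of 0.1. Saline was above buffer by 1.11 (1.05 to 1.19), a smaller difference than that of STZ from either. Rad54l, the motor protein that drives strand invasion, had 335, 350 and 257 reads, folds of 0.80 and 0.769 and ratios of 0.766 (0.648 to 0.904) and 0.733 (0.621 to 0.863).
The others of this group had fewer reads than Xrcc3. Rad51b had 80, 76 and 63 reads, and its interval against buffer, 0.556 to 1.11, reached lower than that of any of the 37. Rad51c, which works with Xrcc3, had 215, 250 and 212 reads. Rad51d and Xrcc2, which form a complex with each other, had 356, 317 and 381 reads and 467, 404 and 498 reads. In both genes STZ was highest and saline lowest, with ratios against saline of 1.2 (1.03 to 1.4) and 1.23 (1.08 to 1.41) and intervals against buffer that held 1.
Rad52, which anneals single strands, had the highest fold of the 37 against buffer, at 1.26, with 240, 290 and 308 reads and an FPKM of 5.37, 6.5 and 7.04. Its fold against saline was 1.07. Its ratio was 1.28 (1.08 to 1.52) against buffer and 1.06 (0.90 to 1.25) against saline. Saline itself was 1.21 times buffer (1.02 to 1.44), so both other libraries were above buffer.

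Of the end joining genes, Xrcc5 and Lig4 were higher in STZ. Xrcc5 and Xrcc6 encode the Ku heterodimer, which caps free ends. Xrcc5 had 788, 755 and 905 reads, an FPKM of 15.69, 15.05 and 17.98, and read ratios of 1.15 (1.04 to 1.26) and 1.2 (1.08 to 1.32). Xrcc6 had 656, 669 and 647 reads, and both its intervals held 1. Lig4, the ligase that seals the ends, had 2570, 2542 and 2886 reads, an FPKM of 19.84, 20.94 and 24.10, folds of 1.2 and 1.14, and ratios of 1.12 (1.06 to 1.18) and 1.13 (1.07 to 1.2). STZ was highest for both Xrcc5 and Lig4.
Xrcc4, the partner of Lig4, had 228, 183 and 241 reads. Its ratio was 1.31 (1.08 to 1.6) against saline and 1.06 (0.877 to 1.27) against buffer, while its FPKM was 6.65, 5.65 and 6.44 and its folds were 0.973 and 1.12. Across the 4 end joining genes the median log2 fold was 0.08 against buffer and 0.18 against saline, and across the 4 BRCA genes it was -0.13 and -0.28. Prkdc, which also acts in end joining but is grouped here with the damage kinases, is not in the first of these medians. Its log2 folds were 0.02 and 0.01. By read ratio the medians against buffer and saline were 1.09 and 1.16 for the same 4 end joining genes. For the 4 BRCA genes they were 0.824 and 0.773. The implied length in STZ relative to buffer was 0.923 for Lig4, 1.09 for Xrcc4 and 0.781 for Brca2. The FPKM medians of both groups thus depend on the assigned lengths. With 4 genes in each, these medians describe the genes named and no test of the difference between them was made.

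The Fanconi anemia genes and Rad18 gave small differences in both directions. Fancc, of the core complex, had 755, 770 and 676 reads and ratios of 0.894 (0.804 to 0.993) and 0.876 (0.789 to 0.972). By FPKM, 5.18, 4.70 and 4.15, its fold was 0.833 and 0.904. The implied length of Fancc was 1.12 times that of buffer in both saline and STZ, so its FPKM folds against buffer depend on the assigned lengths. Saline was below buffer by FPKM fold, at 0.922, and not by read ratio, at 1.02. Fanci, a member of the pair that is ubiquitinated at crosslinks, had 995, 996 and 896 reads, with ratios of 0.899 (0.820 to 0.985) and 0.897 (0.819 to 0.983). Its partner Fancd2 had 734, 808 and 739 reads and had a ratio of 1.01 to buffer (0.906 to 1.11), an interval that held 1. Whether the pair differed was not tested.
Fancg and Fanca, also of the core complex, had 168, 168 and 190 reads and 635, 588 and 641 reads. Fancg had the highest fold of this group against buffer, at 1.09, and 1.09 against saline, with an FPKM of 2.68, 2.68 and 3.02. Its ratios were 1.13 (0.913 to 1.4) and 1.13 (0.912 to 1.4), and both intervals held 1. Rad18, which ubiquitinates the replication clamp at stalled forks, had 391, 362 and 406 reads and an interval of 0.90 to 1.19 against buffer.

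A list of 83 other genes and their older symbols held 75 that were in the table. Their median log2 fold was -0.03 against buffer and -0.04 against saline. By the fold thresholds 0 were higher and 1 was lower than buffer, and 0 were higher and 3 lower than saline. Rmi2, a member of the Blm dissolution complex, was the gene past 0.65 against both, with 239, 231 and 142 reads and folds of 0.627 and 0.645. Rad54b and Brip1 were the others past it against saline, at 0.545 and 0.648. Rad54b, a relative of Rad54l, had 289, 363 and 182 reads, and Brip1, a helicase that binds Brca1, had 246, 324 and 181.
The lowest 3 folds against buffer were those of Rmi2, Rad54b and Rif1, which protects ends from resection and had a fold of 0.767 against either control. The highest were those of Cdc25c, Poll and Rmi1. Cdc25c, a phosphatase that opens mitosis, had 368, 469 and 485 reads and a fold of 1.30 against buffer but 1.01 against saline. Poll, a polymerase of end joining, had folds of 1.25 and 1.08, and Rmi1, the partner of Rmi2, had 2187, 2192 and 2671 reads and folds of 1.21 and 1.16. The folds of Rmi1 and Rmi2, subunits of the same complex, lay on opposite sides of 1. Both genes were named for their extreme folds, and whether the pair differed was not tested.

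Most S phase genes were lower in STZ. Of 43, 29 had a counting interval below 1 against buffer and 1 above, and against saline 30 and 3, beside 13 and 4, and 15 and 5, of the 37 checkpoint and repair genes. The difference between the lists was not tested. Their median log2 fold was -0.22 and -0.26. By the thresholds 0 passed against buffer, and Cdc6 and E2f1 were lower than saline, with folds of 0.630 and 0.583. Of all genes, 1.75% were past the lower threshold against saline. E2f1, which encodes an activating E2F factor, had 2233, 2589 and 1491 reads. Pcna, the replication clamp, had 3074, 2908 and 2355 reads and folds of 0.766 and 0.807. The 35 mitosis genes had 15 intervals below 1 and 7 above against buffer, and 11 and 6 against saline. Of all genes in the read range of the 37, 20.0% were below and 27.9% above against buffer, and 24.9% and 29.1% against saline. Most mitosis genes had more mean reads than the median of that range, 819, and Mki67 and Top2a lay above the range. Intervals narrow with more reads, so these shares are not matched to the mitosis genes in depth. The mitosis medians were -0.07 and -0.02, beside -0.03 and -0.11 for the 37 checkpoint and repair genes. Mki67, a marker of cycling cells, had 14620, 14608 and 10042 reads and a fold of 0.690 against either control, while Top2a had 10953, 10390 and 10495 reads.
Of 24 p53 targets, 9 were past the upper threshold against buffer and 6 against saline, where 2.25% and 2.04% of all genes were. None of these targets, 0, were past the lower. Their medians were 0.22 and 0.28. Phlda3, with 60, 72 and 374 reads, had the highest fold against buffer, 4.61, and Btg2, the most abundant, had 10359, 10361 and 9621 reads, and its fold was 0.927. The median of the checkpoint and repair genes lay between those of the S phase genes and the p53 targets. So did the medians of the other damage response genes, the mitosis genes and all genes.

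**Figure D5:**
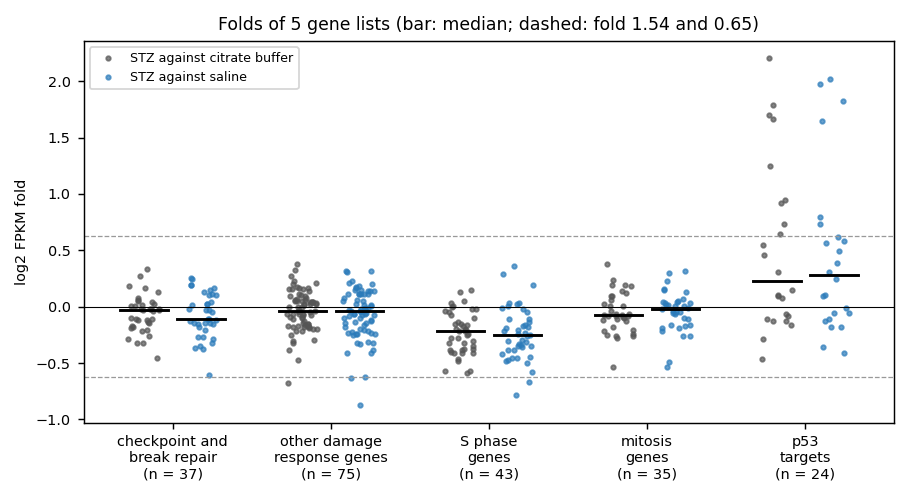
Log2 FPKM folds of STZ against citrate buffer (grey) and against saline (blue) for genes with a mean of at least 10 reads in 5 lists, with a point per gene and a bar at each median. All points of the checkpoint and break repair genes lie between the dashed thresholds, while 9 p53 targets lie above the upper threshold against buffer.

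RNA of cell type markers differed between the libraries beside these values. In bulk RNA, fewer cells of a type and less RNA per cell cannot be told apart. Retinal genes were abundant, with Pax6 at 12271 reads, Otx2 at 13357 and Tfap2b at 10366 for buffer. Of 14 retinal progenitor genes, 3 were below 0.65 against buffer and 5 against saline, with medians of -0.31 and -0.36 and summed reads of 63879, 65544 and 48167, of which Ccnd1, also a cell cycle gene, gave 30498, 30728 and 18626. Of 14 microglia genes, 11 were past the upper threshold against either control, with sums of 1916, 2277 and 4901. Of 17 lens genes, 12 were past it against buffer and 9 against saline, with sums of 351, 878 and 3939. In the saline library, ciliary and iris genes summed to 9129 reads, where buffer had 2869 and STZ 2889, and Aldh1a1 gave 6838, 1904 and 1904 of these. The part of these shifts in the values of checkpoint and repair genes was not tested.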

How the data were processed

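Total RNA from retinas was sequenced on Illumina TruSeq libraries. The authors trimmed poor 5′ ends, mapped the reads with TopHat2 (up to 2 mismatches) to rn6, the build in the submitters' processing notes, which also name FastQC, and discarded reads with several locations. FPKM came from an R script of their own, and the read counting tool and the annotation are not given in the sources used here. Per the file headers, the authors deposited an FPKM, a TPM and an estimated read count for each gene and library. Estimated counts as deposited are fractional for 2382 genes in buffer, 2424 in saline and 2410 in STZ, and were rounded before intervals were computed. Among the 37 genes those of Clspn, Fanca and Fanci are fractional. The joint table and the 3 tables per library hold equal values (largest difference 0). Each condition had 1 library, so differences have no replicate check and no p-value is given.

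The fold, its pseudocount of 1 and its thresholds follow the methods of the study. Read ratios carry exact Clopper-Pearson 95% intervals on counts. The libraries carry no molecular identifiers, so duplicated reads may count the same molecule again, and the intervals cover counting error only. Background shares for the fold thresholds are over all 18425 genes, and those for intervals and for STZ against both controls are over the 11697 genes with mean reads in the range of the 37. The genes and lists were chosen with earlier results of these data known. All 37 genes were named, with full values for the highest and lowest fold of each role. Other damage response genes were named if past a threshold or among the 3 highest or 3 lowest folds against buffer, and Pcna, Mki67 and Top2a were named by symbol. For lists other than these, and S phase and mitosis, the rule took the most abundant gene and that with the largest fold, and of the marker lists only counts, sums and a few such genes are given. The other settings tried were thresholds of 2 and 0.5, a pseudocount of 0.1, only genes with a mean of 50 reads or more, TMM factors (edgeR 4.0.16) or median-of-ratios factors (DESeq2 1.42.0, R 4.3.3), TPM or CPM in place of FPKM, whole-number counts only, the mean of both controls and the counting interval as the rule. Alternatives for single genes, and the interval with TMM factors, were added after the data were seen. No count model was fitted. A few genes are not reported here by name. Promoter windows were taken from RefSeq (GRCr8) by gene ID. Scripts were tested on simulated data and run in Python 3.11.15 with numpy 2.4.6, scipy 1.17.1, pandas 2.3.3 and matplotlib 3.10.9.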

Additional observations from a re-analysis of the deposited data

How the results depend on the processing

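The number of checkpoint and repair genes past the fold rule stayed at 0 in all 3 comparisons with thresholds of 2 and 0.5, a minimum mean of 50 reads, TMM or median-of-ratios factors, TPM and whole-number counts, and at 0 against the mean of both controls. With a pseudocount of 0.1 or with CPM from the read counts it was 1 in STZ against saline, Xrcc3, at a fold of 0.641 or 0.644. With the counting interval as the rule the count was 17 (STZ to buffer), 20 (STZ to saline) and 8 (saline to buffer), and 20, 22 and 9 when TMM factors scaled the totals. Of the 17, 20 and 8, the intervals below 1 were 13, 15 and 4, where 20.0%, 24.9% and 12.7% of genes in the same read range had one, and those above 1 were 4, 5 and 4, where 27.9%, 29.1% and 16.6% did. The median log2 fold of STZ against buffer lay between -0.07 with TMM factors and -0.03 in the alternatives tried, and that against saline between -0.12 and -0.11. For single genes, CPM moved the fold of Brca2 from 0.986 to 0.774 and that of Lig4 from 1.2 to 1.12. The fold of Xrcc3 against buffer ran from 0.692 against the mean of both controls to 0.729. No paired analysis was possible because each condition has 1 library, which also leaves no replicate to drop. Genes near 80 reads, such as Rad51b, are limited by depth.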

Other observations

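Of the 35 mitosis genes, 22 had a fold below 1 in STZ against buffer and 13 a fold above 1. By the counting intervals 15 lay below 1 and 7 above, where 20.0% and 27.9% of genes in the read range of the checkpoint and repair genes did. Most mitosis genes had more mean reads than the median of that range, 819, and intervals narrow with more reads. The genes named next were chosen from the higher ones after their values were seen, and Cdc25b comes from the list of other damage response genes. Ccnb1, which encodes cyclin B1, had 1950, 2038 and 2560 reads (buffer, saline, STZ), with folds of 1.30 and 1.24 against the controls and a read ratio of 1.31 against buffer (95% counting interval 1.24 to 1.39). Cdc25b, a phosphatase that activates Cdk1, had 1774, 1811 and 2066 reads and folds of 1.16 and 1.13. Kif20a, a kinesin of cytokinesis, had 1856, 1910 and 2140 reads, which are rounded from fractional values. All 3 lie short of the upper fold threshold.

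RNA of other cell type markers also differed between the libraries. Of 13 endothelial and pericyte genes, 5 were past the lower threshold in STZ against buffer and 4 against saline, and all 13 had a fold below 1 against either. Their summed reads were 14819, 16054 and 10815, of which Kdr alone gave 13149, 14564 and 9972, and the median log2 folds over the list were -0.51 and -0.54. Of 5 astrocyte genes, 3 were lower than buffer and 4 lower than saline, with sums of 1143, 1185 and 555. Photoreceptor precursor genes summed to 49387, 46569 and 52496 reads and amacrine, horizontal and ganglion cell genes to 23795, 22599 and 28091. Pigment epithelium genes summed to 8022, 8676 and 6559, of which Rlbp1 gave 6996, 6571 and 5501. Of these 11 genes, 5 were past the upper threshold in saline against buffer, among them Pmel with 252, 940 and 240 reads, and Rpe65 was listed at 0 in buffer. Blood genes summed to 1366, 1919 and 1008, with Ahsp listed at 0 in buffer and STZ and at 1 read in saline. In STZ against buffer 2 blood genes were past the lower threshold and 1 past the upper. The latter was Hbb-b1, with 34, 116 and 69 reads after rounding and a fold of 1.84.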
